A study of Mus musculus with 11 samples.

Results

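The Dlk1-Dio3 imprinted region of mouse chromosome 12 carries a large cluster of microRNA (miRNA) genes, and 49 of its miRNA hairpins, mir-770 to mir-410, were followed in cultured spermatogonial progenitor cells (SPCs) with and without knockdown of Mov10, which encodes an RNA helicase. The members were found by name, taking every mature form whose entry in the small RNA tables comes from a listed hairpin. Of the 49 hairpins, 41 had at least 1 entry, giving 61 mature forms of the 1096 miRNAs in the tables. The 8 hairpins without an entry were mir-493, mir-432, mir-1197, mir-758, mir-654, mir-544, mir-668 and mir-412. Both arms of the hairpin were listed for 20 hairpins and a single arm for 21. No entry named more than 1 hairpin.

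SPCs are the Thy1-positive, self-renewing germ cells of the young testis, maintained in culture over a feeder layer of STO fibroblasts, a mouse line whose division had been blocked. The labels give the strain as C57BL/6 and the mice as 6 days old, and the methods of the study state a range of ages that begins at that day. A growth protocol given with the other samples of the series names the B6;129S-Gt(Rosa)26Sor/J strain as the source of the cells, which the small RNA labels do not repeat. Both groups received a lentivirus. Control cells (shVector) carried the control shRNA vector and knockdown cells an shRNA against Mov10. The genotype labels read Mov10 Vector and Mov10 knockdown. The methods name shMov10-832 for the RNA-seq libraries and do not name the shRNA of the small RNA libraries. Small RNA was sequenced as 1 library per group, and whether the triplicates named in the methods were pooled is not stated there. No difference below therefore has a replicate check, and every interval and p-value covers counting error between the 2 libraries only, for reads without molecular identifiers. Mov10 mRNA is not measured by small RNA libraries, so the knockdown could not be checked in them, and the RNA-seq and CLIP-seq samples of the series were not analysed here.

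The region is imprinted. A control element between Dlk1 and Meg3 is methylated on the copy inherited from the father, a mark laid down in the male germ line, and the noncoding RNAs Meg3, Rian and Mirg are transcribed from the maternal copy together with the RNA antisense to Rtl1. The miRNAs are cut from these long RNAs by Drosha and Dicer, and either arm of a hairpin can be loaded into an Argonaute protein, where bases 2 to 8, the seed, select target mRNAs. The miRNAs of the cluster are known best from brain, placenta and pluripotent stem cells.

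In GRCm38 the 47 hairpins with a position in the RefSeq table lie on the plus strand of chromosome 12 within 180.1 kb, from mir-770 (109563692 to 109563785) to mir-410 (109743715 to 109743795). The GENCODE annotation puts mir-770 in an exon of Meg3, mir-370 in an intron of Rian, 8 hairpins in exons and 4 in introns of Mirg, and gives 33 no host gene on their strand, 6 of which lie opposite an exon of Rtl1. The hairpins fall into 4 parts along the chromosome. A first part runs from within Meg3 up to Rtl1 (mir-770 to mir-665), the next is antisense to Rtl1 (mir-431 to mir-136), mir-370 is the only member in Rian, and the long run from mir-379 to mir-410 leads into Mirg.

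The mature sequences that the results turn on are given from RefSeq (GRCm38.p6), written 5′ to 3′ with the seed in capitals. They are the most abundant forms, both arms of mir-299a, which holds the single raised form, and 2 pairs of closely similar sequence.
miR-127-3p: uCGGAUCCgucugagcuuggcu
miR-434-3p: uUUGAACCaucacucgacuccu
miR-411-5p: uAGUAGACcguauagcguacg
miR-541-5p: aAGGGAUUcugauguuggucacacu
miR-410-3p: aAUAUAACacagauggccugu
miR-409-3p: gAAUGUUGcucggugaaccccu
miR-300-3p: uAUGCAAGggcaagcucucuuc
miR-381-3p: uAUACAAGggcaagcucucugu
miR-379-3p: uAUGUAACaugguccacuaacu
miR-411-3p: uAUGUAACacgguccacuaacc
miR-299a-5p: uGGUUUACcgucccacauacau
miR-299a-3p: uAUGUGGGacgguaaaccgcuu
Of the 61 forms, 58 had a mature sequence in the table. With positions counted from 1 at the 5′ end, miR-300-3p and miR-381-3p differ by G4A, U21G and C22U, and the first of these lies in the seed. miR-379-3p and miR-411-3p differ by U10C and U22C, both outside the seed, and are the only 2 members with the same seed, AUGUAAC. Among the other miRNAs of the tables with a sequence, miR-344d-3p has the seed of miR-410-3p, miR-362-3p that of miR-329-3p, miR-672-5p that of miR-377-5p and miR-6985-3p that of miR-673-5p. A first base of U was found in 34.5% of the 58 forms and of A in 37.9%, against 42.7% and 24.7% of 850 other miRNAs. Above the minimum level used for calls below, U came first in 42.4% of 33 members and 42.9% of 459 others. There A came first in 33.3% and 25.1%, so the difference in U was seen only with the lowest forms included. The median GC content was 46.5% in the members and 50% in the others, but 47.6% in both above that minimum. Within the cluster, over all forms with a sequence, it ran from 62.5% in the part between Meg3 and Rtl1 to 45.5% in the Mirg part.

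The authors counted reads that matched a mature miRNA without mismatch and gave for each a TPM value, which is the number of reads per 1000000 reads of the library total, with no length correction. The totals behind TPM were 10518277 reads (control) and 3194363 reads (knockdown), so 1 read was worth 0.0951 TPM and 0.313 TPM, respectively. TPM is scaled within a library, and a loss common to all of its small RNAs leaves no trace in it.

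Cluster miRNAs took a small share of the reads of both libraries and were lower in the knockdown library. They took 19075 control reads and 2657 knockdown reads, that is 1814 and 832 TPM. The ratio of knockdown to control was 0.459 (95% exact interval 0.440 to 0.478), a log2 ratio of -1.12. As a share of the reads on all miRNAs, the cluster took 0.198% in the control (95% Wilson interval 0.195 to 0.201%) and 0.0951% in the knockdown (0.0915 to 0.0988%). All miRNAs summed gave a ratio of 0.956. In bulk samples fewer cells of a type and less RNA per cell cannot be told apart, nor can reads from SPCs and from the feeder layer.

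The level was concentrated in a few forms. miR-127-3p alone held 44.9% of the cluster reads of the control library and 47.8% of those of the knockdown library, and the 8 most abundant forms together held 93.5% and 93.6%. The same 8 forms led in both libraries, but miR-541-5p stood directly behind miR-127-3p in the control and behind miR-411-5p and miR-381-3p in the knockdown. Among all miRNAs of the library, miR-127-3p ranked 78 in the control and 110 in the knockdown. Without miR-127-3p the summed ratio of the other members was 0.435 (0.411 to 0.460).

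A form above 1.5 TPM in at least 1 library was called reduced or raised when its log2 fold change, on TPM + 0.1, passed 1.5-fold. The values of 1.5-fold and 1.5 TPM are those of the study. It does not state which library had to pass, and the added 0.1 was chosen here. Among all miRNAs the study reported more reduced and fewer raised than were found here. Of the 61 forms, 34 were above the minimum. In the knockdown 27 of the 34 were reduced, beside 252 of all 607 miRNAs above the minimum (41.5%). A single form, miR-299a-5p, was raised, beside 96 of the 607 (15.8%), and 6 forms changed less. The median log2 fold change of the 34 forms was -1.36, against -0.37 for the 607 miRNAs and -0.27 for the 573 that are no members. Of the 34 forms, 14 were above the minimum in the control only, all of them reduced, which the minimum itself favours. Among the 20 forms above it in both libraries, 13 were reduced and the median was -1.0, beside 194 of 518 miRNAs (37.5%) and -0.25. The exact binomial test was used with Benjamini-Hochberg adjustment over all 1096 miRNAs. It put 20 of the 61 forms below the control past counting error, beside 235 of the 1096 (21.4%). Above the control it put 1 form, miR-299a-5p, beside 117 of the 1096.

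Depth set how many forms could pass. All 5 forms with at least 1000 control reads and all 10 with at least 50 but fewer than 1000 were lower past counting error, with median log2 fold changes of -1.04 and -1.54. In the same ranges 111 of 206 and 97 of 224 other miRNAs were, with medians of -0.20 and -0.47. Of the 24 forms with 10 to 49 control reads, 5 were lower and 1 higher past counting error, and of the 22 forms with fewer reads none was. Among the other miRNAs, 7 of 179 with 10 to 49 control reads were lower, and none of the 426 with fewer. The 7 forms reduced by fold but within counting error had at most 39 control reads. The 27 forms under the minimum had at most 13 control and 3 knockdown reads, and 17 of them had 0 knockdown reads, where a count of 0 allows up to 0.939 TPM.

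**Figure D1:**
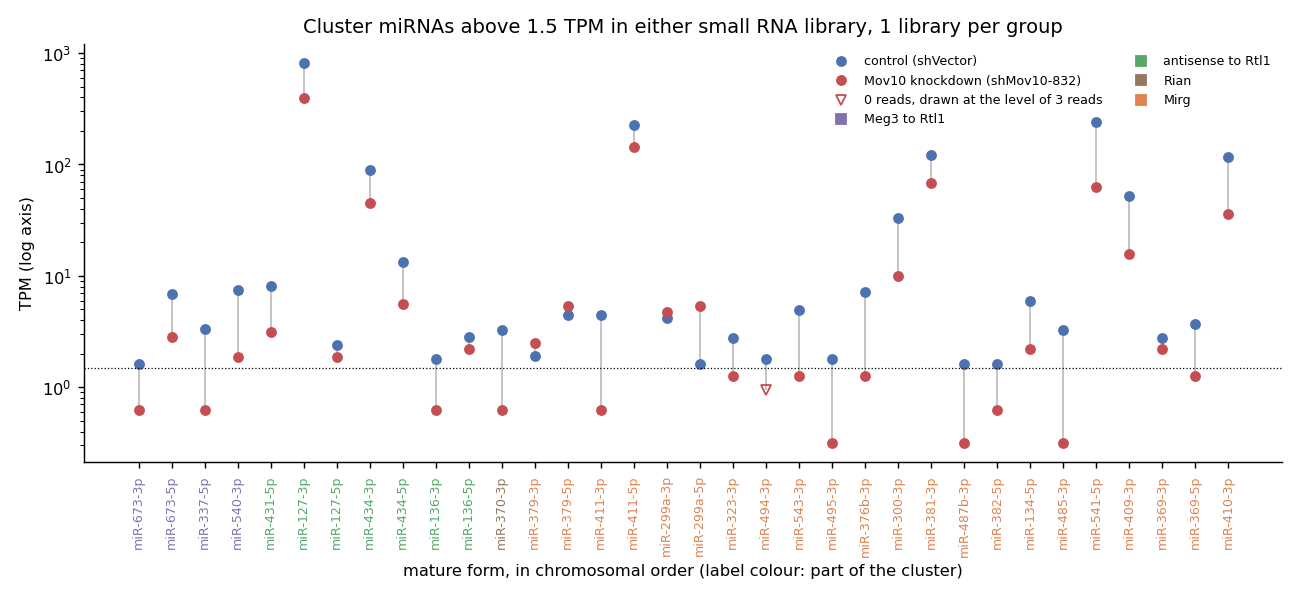
TPM on a log axis of the 34 mature forms above 1.5 TPM (dotted line) in either library, in chromosomal order, with 1 point per library joined by a grey line and the label coloured by part of the cluster. Red points (knockdown) lie below blue points (control) for 30 of the 34 forms, and the other 4 are the arms of mir-379 and mir-299a.

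**Figure D2:**
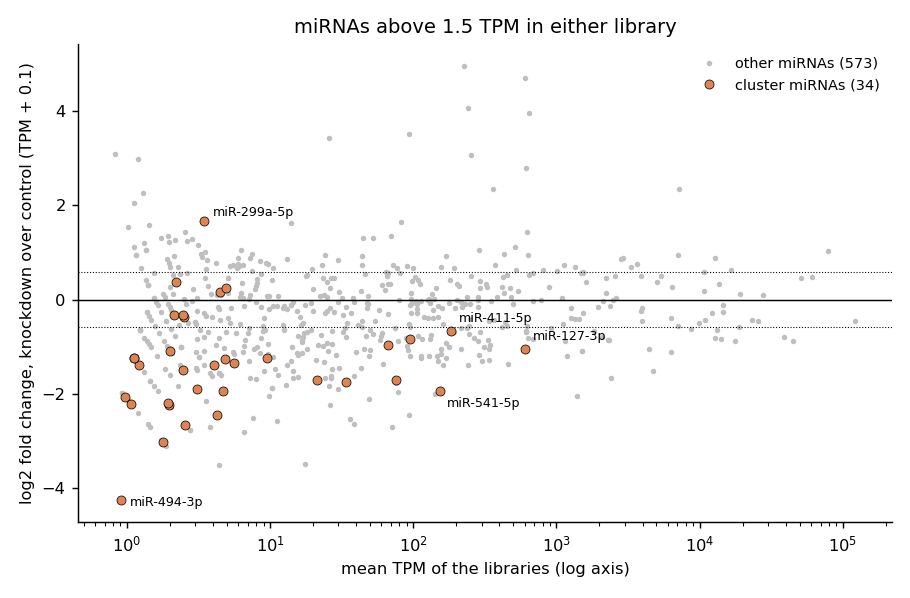
Log2 fold change of the knockdown over the control (TPM + 0.1) against the mean TPM (log axis) for the 607 miRNAs above 1.5 TPM, with the 34 cluster miRNAs in orange and dotted lines at 1.5-fold. Of the 34 cluster miRNAs 30 lie below 0 and 4 above it, with miR-299a-5p the highest and miR-494-3p, which has 0 knockdown reads, the lowest of them.

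The miRNAs antisense to Rtl1, a retrotransposon-derived gene needed in the placenta, supplied 51.5% of the cluster reads in the control. This part fell from 9820 to 1460 reads, a TPM ratio of 0.490 (0.463 to 0.517). miR-127-3p, which is fully complementary to Rtl1 mRNA and can direct its cleavage, was counted at 814 TPM (8564 reads) in control SPCs and at 397 TPM (1269 reads) after knockdown, which is -1.04 on the log2 fold change scale with an exact binomial adjusted p = 7.8e-148. Its other arm, miR-127-5p, had 25 and 6 reads, which counting error did not separate (ratio 0.790, 0.265 to 1.97).

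The neighbouring hairpin mir-434 gave almost the same ratio as mir-127, 0.4997 (0.421 to 0.590) against 0.489 (0.461 to 0.518). miR-434-3p fell from 88.7 to 45.4 TPM and miR-434-5p from 13.4 to 5.63 TPM. miR-431-5p, known from neurons and muscle, had 85 and 10 reads, or 8.08 and 3.13 TPM, and was reduced (log2 fold change -1.34, exact binomial adjusted p = 0.0081), while its other arm miR-431-3p had 10 and 1 reads. The forms of mir-136, which like mir-127 is complementary to Rtl1, were too shallow to separate, at 30 and 7 reads for miR-136-5p and 19 and 2 for miR-136-3p. mir-433 had 13 and 2 reads.

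In the part between Meg3 and Rtl1 the level was low, its reads going from 214 to 19 at a ratio of 0.292 (0.173 to 0.468). miR-540-3p went from 79 to 6 reads (7.51 to 1.88 TPM), and its log2 fold change was -1.94 (exact binomial adjusted p = 6.2e-04). miR-673-5p went from 72 to 9 reads and miR-337-5p from 35 to 2, and both were lower past counting error (exact binomial adjusted p = 0.028 and 0.021). The other arm miR-673-3p, at 17 and 2 reads, was reduced by fold but within counting error. miR-770-3p, from the hairpin in a Meg3 exon, had 1 read and 0 reads, and miR-665-3p had 10 and 0. In Rian, miR-370-3p had 34 and 2 reads, a ratio of 0.194 with a wide interval of 0.0225 to 0.756.

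The Mirg part held 30 of the 41 hairpins and 47.2% of the control reads. Its 9007 control reads stood against 1176 in the knockdown, a ratio of 0.430 (0.404 to 0.457). The hairpins were not lowered alike. mir-541, mir-409 and mir-410, near the end of the run, had ratios of 0.261 (0.225 to 0.301), 0.299 (0.219 to 0.3996) and 0.309 (0.253 to 0.374), each interval lying wholly below that of mir-127.

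miR-541-5p, the member with the second highest control level, fell from 242 TPM (2550 reads) to 63.2 TPM (202 reads), with a log2 fold change of -1.94 and an exact binomial adjusted p = 1.1e-108. miR-410-3p, one of the cluster miRNAs best known from brain, had 1226 and 115 reads, or 117 and 36.0 TPM. miR-409-3p had 551 and 50 reads, or 52.4 and 15.7 TPM. All 3 forms were lower past counting error.

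Other hairpins of the Mirg part were lowered less. miR-411-5p was at 227 TPM (2390 reads) and 143 TPM (456 reads), a ratio of 0.628 (0.567 to 0.695), or -0.67 as a log2 fold change, and with the median ratio or TMM factors as the scale it was at -0.42 or -0.45 and no longer called reduced. miR-381-3p had 1278 and 217 reads (122 and 67.9 TPM) and a ratio of 0.559 (0.482 to 0.646). The interval of mir-411 lies wholly above that of mir-127, and both mir-411 and mir-381 lie above those of mir-541, mir-409 and mir-410.

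Closely similar forms did not all move alike. miR-300-3p, with its single seed difference from miR-381-3p, had 345 and 32 reads (32.8 and 10.0 TPM) and a ratio of 0.305 (0.206 to 0.439), so that its interval lies below that of miR-381-3p although the hairpins are neighbours. miR-411-3p went from 47 to 2 reads, a ratio of 0.140 (0.0165 to 0.535), whereas miR-379-3p, with the same seed, had 20 and 8 reads and a ratio of 1.32 (0.502 to 3.12). These 2 intervals overlap by a narrow margin. Summed as reads with the seed AUGUAAC, the pair gave 67 and 10 reads and a ratio of 0.491 (0.225 to 0.961). miR-543-3p and miR-495-3p, which differ at 4 bases, were at similar ratios, 0.253 (52 and 4 reads) and 0.173 (19 and 1 reads). In the 2 other similar pairs, miR-376a-3p with miR-376b-3p and miR-154-3p with miR-369-3p, the first form had 3 and 0 reads.

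Shallower forms of this part were mostly lower. miR-376b-3p, of a family known for editing of its seed by adenosine deamination, went from 76 to 4 reads (7.23 to 1.25 TPM, log2 fold change -2.44, exact binomial adjusted p = 6.6e-05), and its other arm had 5 and 0 reads. miR-543-3p went from 52 to 4 reads and miR-134-5p, which acts on dendritic spines in neurons, from 62 to 7, and both passed the test (exact binomial adjusted p = 0.0087 and 0.032). miR-485-3p had 34 and 1 reads, a ratio of 0.0968 (0.00238 to 0.577). miR-494-3p had 19 and 0 reads, with an interval of 0 to 0.706 for the ratio. With the knockdown set at the floor of 3 reads and no error in the control reads, it would be 1.92-fold lower. miR-134-5p, miR-485-3p and miR-494-3p lie outside the rule for named forms and were chosen after their values were seen, as were the forms of mir-136, mir-433, mir-337, mir-770, mir-665, mir-370 and mir-495.

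The run opens with mir-379, mir-411 and mir-299a. The ratio of mir-411, 0.619 (0.559 to 0.684), overlaps that of mir-381 further along, 0.559 (0.482 to 0.646). mir-379 had 67 and 25 reads, a ratio of 1.23 whose interval of 0.743 to 1.97 includes 1. miR-379-5p had 47 and 17 reads, or 4.47 and 5.32 TPM.

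mir-299a was the only hairpin of those with at least 50 control reads whose whole interval lay above 1, at 1.73 (1.09 to 2.69). Its miR-299a-5p had 17 reads in each library, which makes 1.62 TPM for the control and 5.32 TPM for the knockdown, and its log2 fold change was 1.66 (exact binomial adjusted p = 0.0029). Its miR-299a-3p had 44 and 15 reads, or 4.18 and 4.70 TPM. The 4 forms above the control, both arms of mir-379 and of mir-299a, stayed above 0 with each scaling that corrects for depth. There miR-299a-5p was at 1.73 per miRNA read, 1.91 by median ratio and 1.88 by TMM. Dividing both libraries by the control total leaves the difference in depth uncorrected, which moves every form with knockdown reads down. With that setting miR-299a-5p stood at 0 and the other 3 turned to between -1.22 and -1.49 on the log2 scale.

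**Figure D3:**
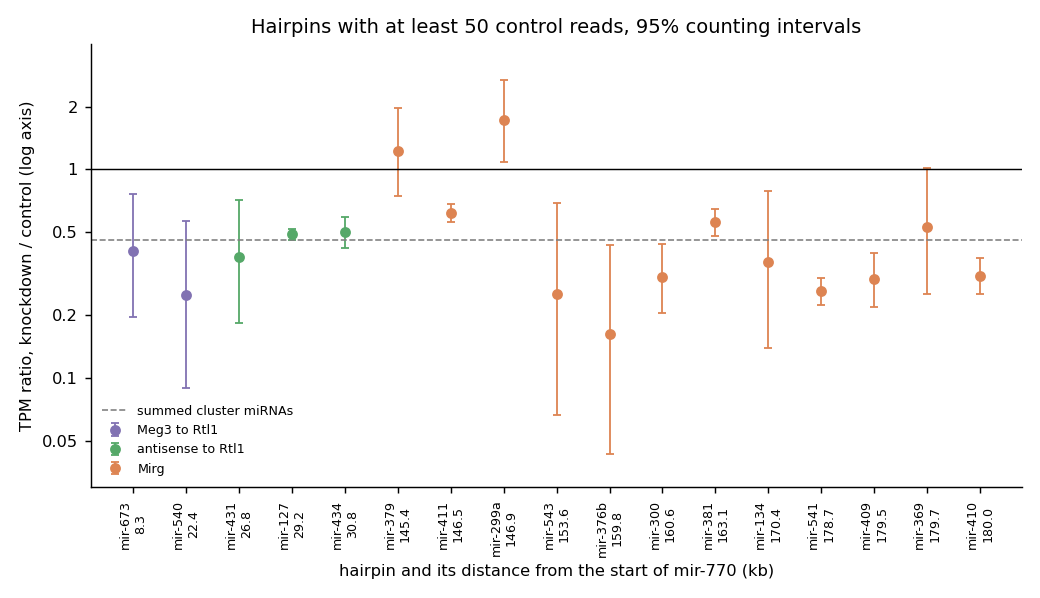
TPM ratio of knockdown to control (log axis) with its 95% counting interval for the 17 hairpins with at least 50 control reads, in chromosomal order with the distance from the start of mir-770 in kb, coloured by part. The ratio is below 1 for 15 hairpins and the whole interval is below 1 for 14, mir-379 and mir-299a lie above 1, and the dashed line marks the summed ratio of 0.459.

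The share of a hairpin's reads on its 5p arm does not depend on how the libraries are scaled. It kept its side in the deep hairpins, at 0.291% and 0.471% of reads for mir-127, 13.1% and 11.0% for mir-434, and 98.1% and 99.6% for mir-411 in the control and knockdown. mir-299a was the single hairpin with at least 20 reads in each library whose leading arm differed, with 27.9% of 61 reads on the 5p arm in the control (Wilson 18.2 to 40.2%) and 53.1% of 32 reads in the knockdown (36.4 to 69.1%). The intervals overlap, as they did for all 14 hairpins compared, but such overlap is no test, and the difference in share was not tested. For mir-411 the intervals of the TPM ratio did not overlap between the arms. They were 0.567 to 0.695 for miR-411-5p and 0.0165 to 0.535 for miR-411-3p, which had 47 and 2 reads.

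**Figure D4:**
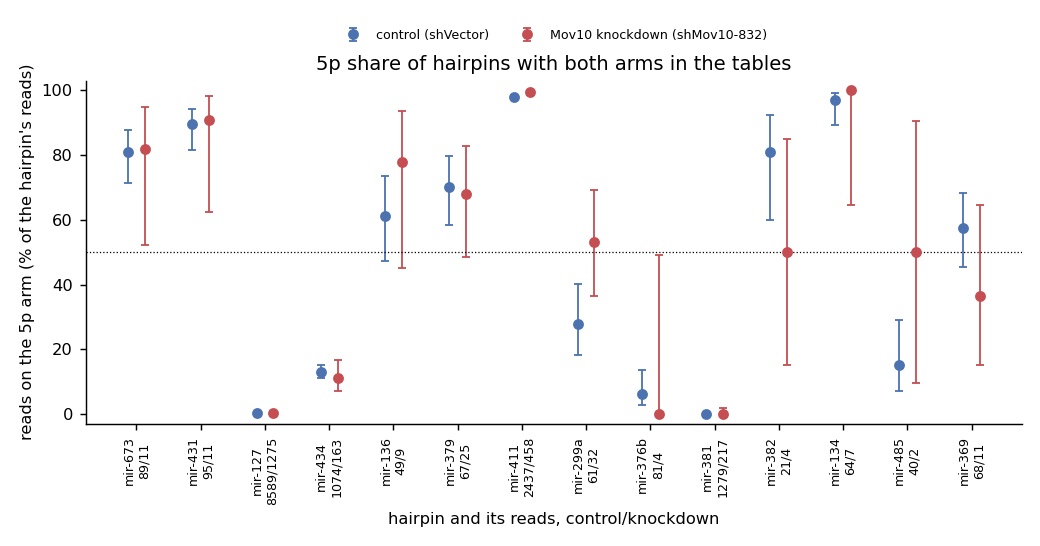
Percent of a hairpin's reads on the 5p arm, with 95% Wilson intervals, in the control (blue) and knockdown (red) libraries for the 14 hairpins with both arms listed, at least 20 control reads and at least 1 knockdown read, whose numbers stand under each name. The leading arm is the same in both libraries for mir-127, mir-434, mir-411 and mir-381, and mir-299a passes from 27.9% to 53.1%. mir-369 also crosses 50%, from 57.4% of 68 control reads to 36.4% of 11 knockdown reads. mir-382 and mir-485 stand at 50% of 4 and 2 knockdown reads.

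Other miRNAs were set beside the cluster. The 7 listed forms of the same region that are no members, from mir-341, mir-1247, mir-3071 and mir-3072, had a summed ratio of 0.551 (0.428 to 0.702), and of 4 above the minimum 2 were reduced and none raised. miRNAs of other imprinted genes (Mest, Gnas, Igf2 and H19) had a summed ratio of 0.530 (0.519 to 0.542), with 6 of 7 forms reduced, among them miR-298-5p at 2242 and 545 TPM, and 1 raised, miR-335-5p.

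Markers of the cells a culture can hold also differed between the libraries. The 10 mesenchymal and fibroblast forms (mir-143, mir-145a, mir-199a, mir-199b, mir-214), all detected in both libraries, summed to 27675 TPM in the control and 32318 TPM in the knockdown, a ratio of 1.17 (1.16 to 1.18), with 1 raised and none reduced. Most of this sum was miR-143-3p, at 18362 and 20113 TPM. Of the 10 forms, 7 were above the control and 3 below it, with 6 higher and 1 lower past counting error. The lower form was miR-214-3p, at 423 and 316 TPM (exact binomial adjusted p = 4.9e-17). The 16 stem and germ cell forms, of the mir-290 to mir-295 and mir-302 families, summed to 2134 and 1310 TPM, a ratio of 0.614 (0.594 to 0.634), with 10 of 14 above the minimum reduced. miR-292b-3p and miR-292b-5p of the same family, which the list lacks, were at 9.22 and 9.70 TPM and at 9.51 and 10.02 TPM and not reduced. The mir-302b and mir-302d forms were at 1 and 2 reads in the control and at 0 in the knockdown. The 7 forms of later germ cells (mir-34b, mir-34c, mir-449a, mir-449c) summed to 9765 and 18034 TPM, a ratio of 1.85 (1.83 to 1.87), with 2 of 6 above the minimum raised and none reduced. miR-34c-5p gave most of the sum, at 9034 and 16687 TPM, and miR-34b-5p was the other raised form. miR-449a-5p did not rise, at 109.8 and 103.3 TPM, and miR-449c-5p had 18 and 4 reads. The 6 blood forms summed to 175.8 and 35.1 TPM, a ratio of 0.199, with 2 of 3 above the minimum reduced. Both reduced forms are of mir-142a, which gave most of the sum, with miR-142a-5p at 158.1 and 28.8 TPM, while miR-150-5p was at 3.99 and 3.13 TPM and miR-223-3p at 11 and 3 reads. miR-155-5p, another miRNA of blood cells that was not on the list, was at 100.2 and 95.5 TPM, and miR-155-3p was raised from 1.33 to 3.76 TPM. The 6 neural forms summed to 589.7 and 331.8 TPM, a ratio of 0.563, with 3 of 4 above the minimum reduced. Most of the sum came from miR-128-3p, at 454 and 234 TPM. miR-124-3p, at 20 and 3 reads, was reduced by fold but within counting error. miR-9-5p went the other way, at 51.9 and 77.6 TPM. It was higher past counting error (exact binomial adjusted p = 1.6e-06) but not called raised. mir-302a, mir-302c, mir-367 and mir-449b had no entry. The part of these marker changes in the lower level of the cluster was not tested.

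The summed level of the cluster was lower under each scaling tried, by amounts that differed. With the libraries scaled by the median ratio, the median over all miRNAs moved from -0.37 to -0.12 and the calls over all miRNAs from 252 reduced and 96 raised to 191 and 144, whereas the cluster had 26 reduced and 2 raised forms and a median of -1.12. Dividing both libraries by the control total does not correct for depth, and the log2 ratio of the library totals was -1.72. With this setting 561 of 581 miRNAs were reduced and 10 raised, and 33 of the 34 cluster forms were reduced. These falls follow largely from the lower depth of the knockdown library and are no check of the other scalings.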

How the data were processed

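The authors deposited raw read counts and TPM values for 1096 mature miRNAs per library. They filtered rRNA reads, trimmed adaptors with Fastx and mapped the reads to miRBase without mismatch in CLC Genomics Workbench. Dividing deposited counts by TPM gave 1 total per library (10518277 and 3194363 reads), and its content is not given in the sources used here. A single read thus sets a step of 0.0951 and 0.313 TPM.

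Groups came from the sample labels, with 1 library each. Fold changes were taken as log2 of TPM + 0.1, calls needed 1.5-fold and 1.5 TPM in either library. For each miRNA the knockdown reads given both libraries' reads were tested against the library totals (exact binomial test, two-sided), adjusted over 1096 miRNAs after Benjamini and Hochberg and called at 0.05 (Python 3.11.15, scipy 1.17.1), ratios given exact 95% intervals and shares Wilson intervals. TMM factors came from edgeR 4.0.16, for scaling only. The functions were tested on simulated data. Hairpin positions and sequences are from RefSeq GRCm38.p6, host genes from GENCODE.

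Forms were named by a rule, beginning with the 15 highest in TPM. Among forms with at least 50 control reads it took the 5 lowest and the 5 highest log2 fold changes, all of them below 0. It also took the other arms of these forms, hairpins whose leading arm differed with at least 20 reads in each library, and hairpins without entry. Forms named outside the rule are listed as such in the report. Members, lists and rules were chosen with earlier results of these data known. Alternative scalings, minimums, pseudocounts and thresholds were tried. RNA-seq and CLIP-seq files were not used here.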

Additional observations from a re-analysis of the deposited data

How the results depend on the processing

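With 1 library per group no replicate could be left out. No paired analysis was possible because the control and the knockdown have a single library each. Depth limits the low forms, since 27 of 61 lay under 1.5 TPM and the depth of the knockdown library sets a floor of 0.939 TPM.

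The count of 27 reduced forms (of 34) became 9 of 9 with a minimum of 10 TPM (39.9% of all miRNAs then tested), 48 of 61 with no minimum (51.2%) and 13 of 20 with 1.5 TPM required in both libraries (37.5%). The count of 1 raised form became 2 after scaling by the median ratio or TMM factors, 0 with the control total for both or a minimum of 10 TPM, and 3 with no minimum. Values by the control total, here and below, keep the difference in depth between the libraries, so they are lower by construction. The median of -1.36 moved to -1.30 per miRNA read, -1.12 by median ratio, -1.15 by TMM, -2.93 by the control total, -1.24 at a minimum of 10 TPM, -1.35 with none, -1.0 with the minimum in both libraries, -1.56 per hairpin, and -1.21 or -1.05 with pseudocounts of 0.5 or 1 TPM.

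The summed log2 ratio of -1.12 moved to -1.06 per miRNA read, -0.87 by median ratio, -0.91 by TMM, -2.84 by the control total and -1.20 without miR-127-3p. The antisense Rtl1 part (-1.03) gave -0.78, -0.81 and -2.75, and the Mirg part (-1.22) -0.97, -0.9997 and -2.94, by median ratio, TMM and the control total. The Meg3 to Rtl1 part (-1.77) gave -3.49 by the control total. Of the 24 named forms, 20 were below 0 and 4 above it with each scaling and pseudocount other than the control total, where 23 were below and none above.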
